A study of Neogale vison with 6 samples.

Results

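A set of 9 genes of the p53 pathway, among them RPRM, which codes for Reprimo, was followed after cholesterol depletion (CD) of Mv1Lu cells, an epithelial line derived from the lung of the mink. The genes were chosen by symbol (MDM2, MDM4, CCNG1, GADD45A, BTG2, RPRM, PPM1D, TP53INP1 and ZMAT3), out of 24526 genes in the deposited table of read counts. Of these, 8 were found by symbol and all 8 had enough reads to be tested, as had 12148 genes in all. MDM4 is not a symbol of the table, but a row with the symbol Q6MZR7 (ENSNVIG00000017091) carries the description of MDM4, and its values are given under that name without counting it among the 8. The RNA-seq data comprised 3 libraries of untreated cells (control) and 3 libraries of cells kept for 16 h with 50 μM lovastatin, an inhibitor of HMG-CoA reductase, and 50 μM mevalonate, in medium with 10% lipoprotein-deficient serum (LPDS). Both groups are the same cell line and the labels name no genetic change, the parts of the treatment cannot be told apart, and the labels do not say whether the libraries of a group came from separate cultures, so the spread between them may be technical.

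The transcription factor p53 is kept scarce by ubiquitin ligases, and DNA damage or other stress releases it from them. It then switches on genes that halt the cell cycle, repair DNA or start apoptosis, together with genes such as MDM2 that turn it off again. Genes of cell division fall when p53 is active, largely through the CDK inhibitor p21 (CDKN1A) and the DREAM repressor complex. Many of the targets also answer to other transcription factors, so their mRNA is no direct measure of p53 activity.

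Reads counted on genes lay between 13473820 and 18633764 per library. Reads assigned to no gene made up 29.3% to 47.2% in the control and 31.1% to 41.4% in the CD libraries. By a chi-square of read counts over genes, CD replicate 3 stood apart from CD replicates 1 and 2 (72.4 and 47.8 per degree of freedom, against 15.1 between those). Control replicate 3 differed less from control replicates 1 and 2 (37.9 and 25.0, against 9.23 between those). Levels are given in CPM, read counts scaled to the library size after TMM normalization. CD was compared with control by the quasi-likelihood test of edgeR, which gives the log2 fold change of CD over control (log2FC) with its standard error (SE), and a gene was called at an FDR under 0.05. Among all tested genes 47.7% were called, 24.8% higher and 22.9% lower in CD. Without CD replicate 3, 3616 genes were called higher and 3606 lower, against 3016 and 2784 with all libraries. Of the epithelial markers, keratins KRT7 and KRT19 were abundant, while EPCAM and CDH1 had at most 4 and 6 reads in any library. The summed level of the 4 epithelial markers found was 7720 to 8380 CPM in control and 1480 to 1940 CPM in CD, and that of 5 fibroblast markers 306 to 384 and 180 to 228 CPM. The 5 endothelial markers summed to 206 to 221 and 75.9 to 124 CPM, nearly all from TEK, with PECAM1 and CDH5 at 0 in control, while VWF was called higher in CD on 0 to 3 reads per control and 14 to 27 reads per CD library. The 4 leukocyte markers summed to 5.20 to 5.84 and 17.6 to 23.3 CPM, nearly all from CD68. Both CD68 and CD14 were called higher in CD, CD14 on 1 to 4 reads per control and 11 to 15 reads per CD library, while LYZ had no reads and PTPRC 1 read in all libraries together. KRT8, KRT18 and CD3E could not be matched by symbol. In bulk RNA, fewer cells of a type and less RNA per cell cannot be told apart, and the part of these shifts in the results for the p53 pathway was not tested.

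The 9 genes were chosen with results of this same comparison known, so their values are a description and no test is given for any of them. In CD, 5 of the 8 genes found by symbol were among the genes called higher (MDM2, GADD45A, BTG2, TP53INP1 and PPM1D) and 1 among those called lower (RPRM), against 24.8% and 22.9% of all tested genes. CCNG1 and ZMAT3 were not called. The groups did not overlap for the 6 called genes, 5 higher and 1 lower, and overlapped for the other two, while 58.0% of all tested genes did not overlap, 29.5% higher and 28.6% lower. PPM1D was not called without control replicate 1, control replicate 3 or CD replicate 2, and ZMAT3 was called without CD replicate 3, so that 5 to 7 of the 8 genes were called with 1 library left out. Without CD replicate 3 the log2FCs were 0.889 for MDM2, 1.265 for GADD45A, 0.939 for BTG2, 1.155 for TP53INP1, 0.692 for PPM1D, 0.306 for CCNG1, 1.025 for ZMAT3 and -5.35 for RPRM. As the choice of genes used this comparison, nothing is read from these counts.

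**Figure D1:**
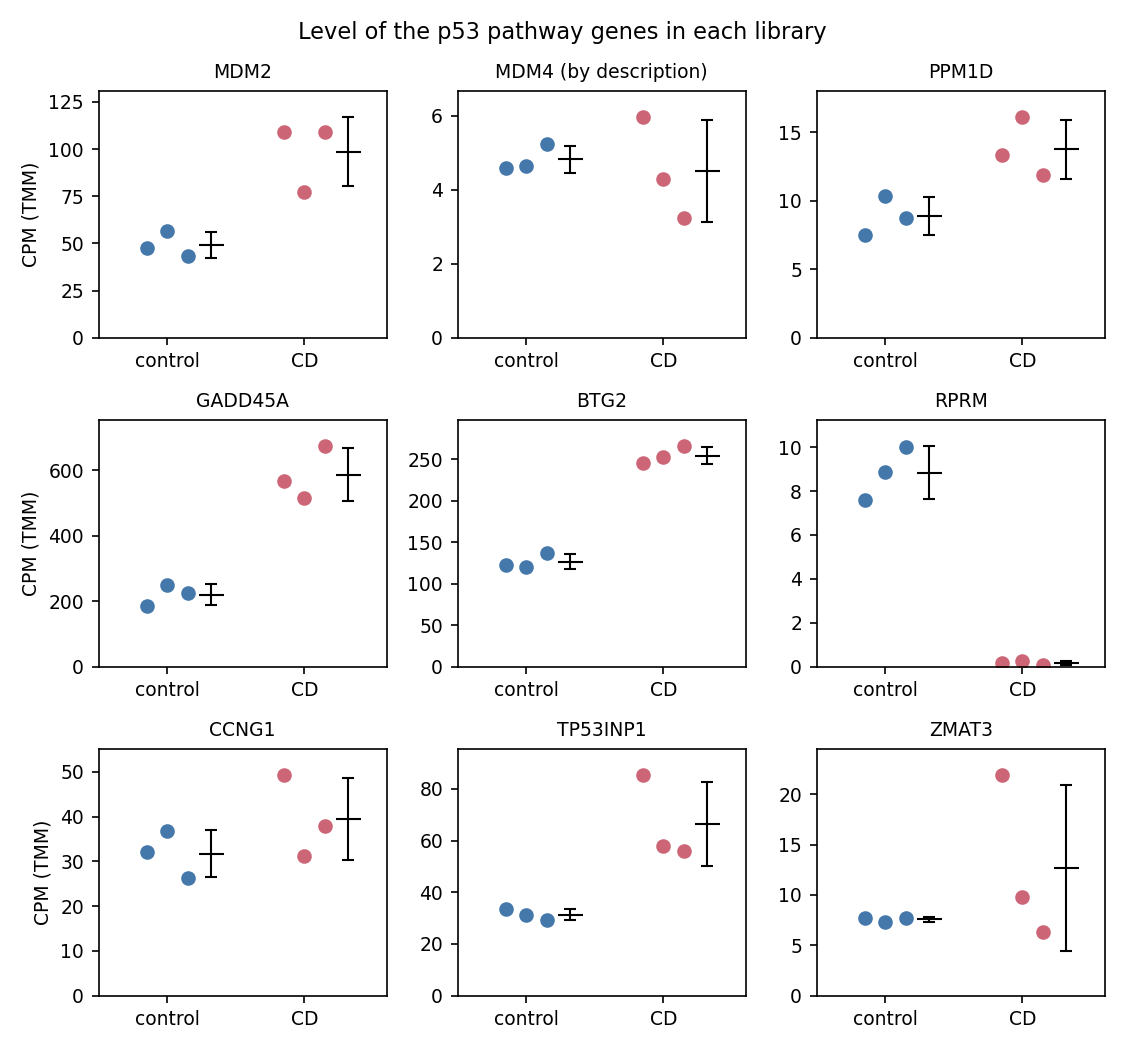
Level of each gene in CPM after TMM normalization (y axis, from 0) in the 3 control (blue) and 3 CD (red) libraries, in the order of replicates 1, 2 and 3, with the mean and SD of each group in black. All CD libraries lie above all control libraries for MDM2, PPM1D, GADD45A, BTG2 and TP53INP1 and below them for RPRM, and the groups overlap for MDM4, CCNG1 and ZMAT3.

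RPRM encodes Reprimo, a p53-induced cytoplasmic protein that arrests cells in G2 by keeping the CDK1–cyclin B complex inactive. RPRM (ENSNVIG00000008208) had 106, 123 and 182 reads in control replicates 1, 2 and 3 and 3, 4 and 1 reads in CD replicates 1, 2 and 3. Each control library thus held many more RPRM reads than the 3 CD libraries together. In CPM, the values were 7.59, 8.89 and 10.0 in control and 0.184, 0.245 and 0.072 in CD, or 8.84 ± 1.22 against 0.167 ± 0.0879 (SD, n = 3 each). The fitted log2FC was -5.62 ± 0.33 (SE). Summed over the libraries, the 411 control reads against 8 CD reads gave, after scaling to the summed TMM library sizes, a ratio of 51.9 in favor of control, with a 95% Clopper-Pearson interval of 26.1 to 121 that covers counting error only. RPRM was the only one of the 8 genes that was lower in CD. Of all 12148 tested genes, 0.00823% had a lower log2FC than RPRM. The log2FC of RPRM lay between -6.01, without CD replicate 2, and -5.35, without CD replicate 3, when 1 library was left out. The control libraries of RPRM varied by a coefficient of variation of 13.8%, and the CD libraries by 52.6% on very few reads.

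Among the tested genes with a symbol, those most like RPRM in expression pattern over the 6 libraries were POLE, CDCA7 and ANGPTL4. Likeness was measured as the Euclidean distance between centered log2 CPM profiles, and 2059 tested genes without a symbol were left out. POLE, the catalytic subunit of DNA polymerase epsilon, averaged 130.1 ± 9.68 CPM in control against 5.32 ± 1.80 CPM in CD (SD, n = 3 each), a log2FC of -4.60. Its CD libraries held 6.94, 5.64 and 3.39 CPM in replicates 1, 2 and 3, and for both POLE and RPRM the lowest value was in replicate 3. CDCA7, a cofactor of chromatin remodeling at heterochromatin, and ANGPTL4, a secreted inhibitor of lipoprotein lipase, had a log2FC of -5.35 and -5.07. The distances to RPRM were 0.588 for POLE, 0.826 for CDCA7 and 0.857 for ANGPTL4, and as these genes were chosen by this measure no test is given for them. All 3 genes had more reads than RPRM.

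MDM2 is the main ubiquitin ligase of p53 and is itself a p53 target. MDM2 (ENSNVIG00000010478) was at 47.6, 56.6 and 43.1 CPM in control replicates 1, 2 and 3 and at 109, 77.4 and 109 CPM in CD replicates 1, 2 and 3. The groups did not overlap, and CD replicate 2 was the lowest of its group. The mean was 49.1 ± 6.87 CPM in control against 98.6 ± 18.4 CPM in CD (SD, n = 3 each), a log2FC of 1.01 ± 0.17 (SE) or 2.01-fold. With 1 library left out, MDM2 lay between 0.889 and 1.123, and 89.4% of all tested genes had a lower or equal log2FC. MDM4, a relative of MDM2 that binds p53 and blocks its activation domain, was measured by 45 to 97 reads per library. Its level was 4.59, 4.63 and 5.23 CPM in control and 5.96, 4.29 and 3.24 CPM in CD, so that the CD libraries lay on both sides of the control libraries. The means of MDM4 were 4.82 ± 0.363 and 4.50 ± 1.37 CPM (SD, n = 3 each). Its log2FC was -0.095 ± 0.24 (SE), and it changed sign to 0.05 without CD replicate 3.

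PPM1D (WIP1) is a phosphatase that switches off p53, ATM and p38 after stress. It (ENSNVIG00000001090) stood at 7.52, 10.3 and 8.76 CPM in the control and 13.3, 16.1 and 11.9 CPM in the CD libraries. The gap between the highest control and the lowest CD library was small, and the log2FC was 0.63 ± 0.19 (SE). It was lowest, at 0.473, without CD replicate 2 and highest, at 0.75, without control replicate 2. The 3 inhibitors of p53 thus had CD levels above control for MDM2 and PPM1D and on both sides of control for MDM4. CCNG1, or cyclin G1, guides the phosphatase PP2A to MDM2. CCNG1 (ENSNVIG00000005987) measured 32.1, 36.7 and 26.3 CPM in the control libraries against 49.3, 31.1 and 37.8 CPM in the CD libraries, and 1 CD library, replicate 2, lay within the control range. The means of CCNG1 were 31.7 ± 5.23 CPM in control and 39.4 ± 9.20 CPM in CD (SD, n = 3 each). Its log2FC of 0.32 ± 0.19 (SE) went down to 0.13 without CD replicate 1 and up to 0.43 without control replicate 2.

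GADD45A and BTG2 slow cell division. GADD45A is a stress sensor that binds PCNA and the kinase MAP3K4, and BTG2 recruits the CCR4–NOT deadenylase to mRNAs. GADD45A (ENSNVIG00000011189) measured 185, 249 and 225 CPM in the control libraries against 568, 515 and 674 CPM in the CD libraries. Every CD library of GADD45A had over 2 times the reads per library size of every control library. The fitted change was the highest of the 8 genes, a log2FC of 1.41 ± 0.15 (SE) or 2.66-fold, and lay between 1.27 and 1.51 with 1 library left out. BTG2 (ENSNVIG00000016190) measured 122, 120 and 137 CPM in the control libraries against 245, 253 and 266 CPM in the CD libraries. Its 3 CD libraries lay within 0.12 of each other on the log2 scale, and its log2FC was 1.01 ± 0.11 (SE). Over all tested genes, the median range among the CD libraries was 0.47 in log2 CPM with a prior count of 2. BTG2 varied by a coefficient of variation of 7.11% in control and 4.17% in CD, and its log2FC lay between 0.939 and 1.06 with 1 library left out. BTG2, MDM2 and TP53INP1 had log2FCs within 1 SE of each other, and their order cannot be told from these libraries.

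TP53INP1 encodes a nuclear stress protein that works with p53 and also binds ATG8 proteins in autophagy, and ZMAT3 encodes an RNA-binding zinc finger protein. TP53INP1 (ENSNVIG00000001668) measured 33.5, 31.4 and 29.1 CPM in the control libraries against 85.4, 57.9 and 56.0 CPM in the CD libraries, with a log2FC of 1.08 ± 0.17 (SE). TP53INP1 was alike in the 3 control libraries, and CD replicate 1 stood above the other CD libraries. Without that library its log2FC was 0.873. ZMAT3 (ENSNVIG00000018146) measured 7.74, 7.30 and 7.66 CPM in the control libraries against 21.9, 9.75 and 6.34 CPM in the CD libraries. The control libraries of ZMAT3 were nearly alike, whereas CD replicate 1 was far above them, CD replicate 2 somewhat above and CD replicate 3 below. The CD libraries of ZMAT3 spanned 1.79 on the log2 scale. In log2 CPM with a prior count of 2, their range was above that of 98.7% of all tested genes. ZMAT3 varied by a coefficient of variation of 3.08% in control and 64.7% in CD. The log2FC of ZMAT3 was 0.75 ± 0.38 (SE) with all libraries, 0.105 without CD replicate 1 and 1.025 without CD replicate 3. TP53INP1, ZMAT3, CCNG1 and MDM4 were each highest in CD replicate 1 among the CD libraries, as were 36.8% of all tested genes. CD replicate 3 held more unmapped reads (9.37%) than CD replicates 1 and 2 (3.54% and 4.33%), while the control libraries held 4.25% to 18.4%, and the part of this in these values was not tested.

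**Figure D2:**
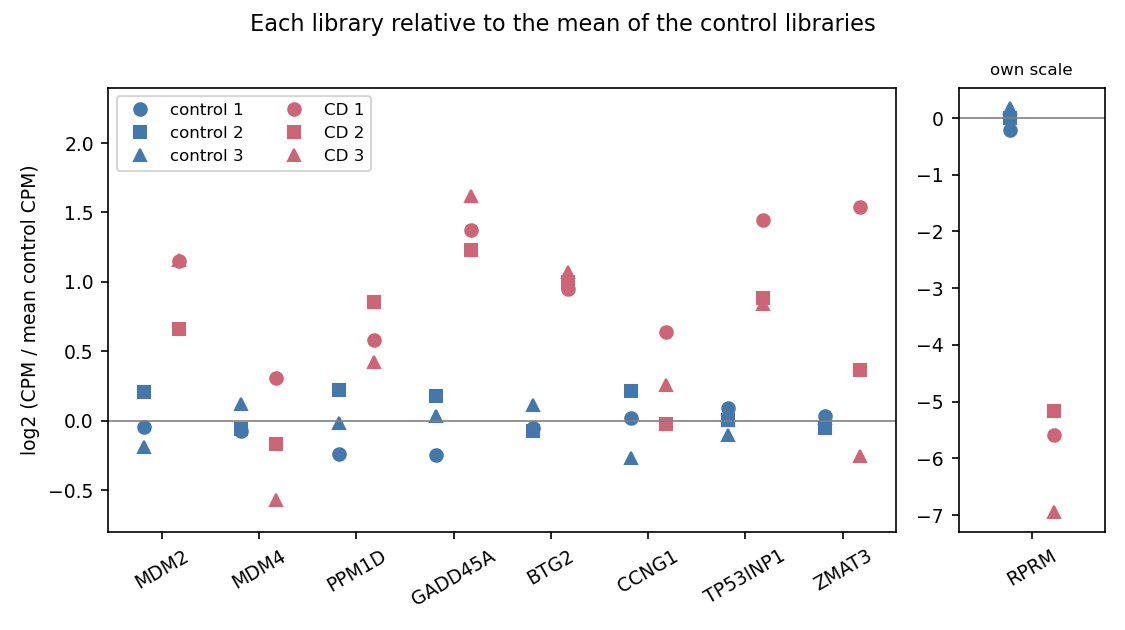
Level of each library as log2 of its CPM over the mean control CPM (y axis), with control in blue and CD in red and a marker shape for each replicate number; RPRM has its own scale. The CD libraries of BTG2 lie together near 1, those of ZMAT3 spread from -0.26 to 1.54, and those of RPRM lie between -6.94 and -5.17.

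The paralogs of these genes share their protein families and were compared with control by the edgeR test. Of 21 paralogs listed, 19 were found and 16 tested, of which 7 rose and 2 fell in CD, and 7 were not called, so that 56.2% were called, against 47.7% of all tested genes. Their median log2FC was 0.33, against 0.057 over all tested genes. RPRML, the relative of RPRM, and PPM1B could not be matched, while BTG4, ZMAT1 and ZMAT4 had too few reads. The list was written with results of these data known, and no difference between a gene and its paralog was tested.

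In the BTG/TOB family, 3 of the 4 tested paralogs of BTG2 rose, against 24.8% of all tested genes. BTG1 rose from 55.6 ± 3.24 to 392 ± 50.2 CPM (mean ± SD of 3 libraries; log2FC 2.82 ± 0.13 SE, FDR 3.46e-07, edgeR). TOB1 rose from 114 ± 6.08 to 305 ± 2.17 CPM (log2FC 1.42, FDR 4.15e-06, edgeR), with its CD libraries at 304, 303 and 307 CPM. BTG3 rose by a log2FC of 1.26 (FDR 1.73e-04, edgeR), and TOB2 had a value of 0.28 (FDR 0.25, edgeR). TOB2 lay between 0.044, without CD replicate 2, and 0.372, without CD replicate 3, and only without the latter was it called among 14 alternative settings. BTG2 itself, at 1.01, lay below BTG1, BTG3 and TOB1 and above TOB2. GADD45A, at 1.41, had a higher log2FC than both its paralogs, which were not called. GADD45B averaged 132 ± 5.30 CPM in control against 123 ± 10.3 CPM in CD (log2FC -0.11, FDR 0.45, edgeR). GADD45G had 9.03, 9.76 and 8.21 CPM in control and 7.74, 8.28 and 14.0 CPM in CD (log2FC 0.15, FDR 0.63, edgeR), and only CD replicate 3 lay above the control range.

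CCNG2, a cyclin abundant in resting cells, rose from 4.77 ± 0.0631 to 11.03 ± 1.05 CPM (mean ± SD of 3 libraries; log2FC 1.21 ± 0.17 SE, FDR 3.33e-04, edgeR). CCNI rose by a log2FC of 0.82 (FDR 0.00122, edgeR). CCNG1, described above, had a lower log2FC than both. TP53INP2, which carries ATG8 proteins out of the nucleus in autophagy, measured 5.73, 5.57 and 6.34 CPM in the control libraries against 25.2, 25.3 and 10.9 CPM in the CD libraries (log2FC 1.80 ± 0.30 SE, FDR 8.48e-04, edgeR). TP53INP1 also had its lowest CD level in replicate 3, but with a smaller gap to the others. Among the phosphatases, PPM1A rose by a log2FC of 1.13 (FDR 1.37e-04, edgeR). PPM1G and PPM1F fell, with values of -0.93 (FDR 8.47e-05, edgeR) and -0.76 (FDR 0.00447, edgeR). PPM1D, at 0.63, lay between PPM1A and these. PPM1K and PPM1L, at under 1 CPM on average, had 0.38 and -0.30 (FDR 0.42 and 0.51, edgeR). The zinc finger genes ZMAT2 and ZMAT5 had log2FCs of -0.13 and -0.075 (FDR 0.43 and 0.72, edgeR), while ZMAT3 had 0.75.

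**Figure D3:**
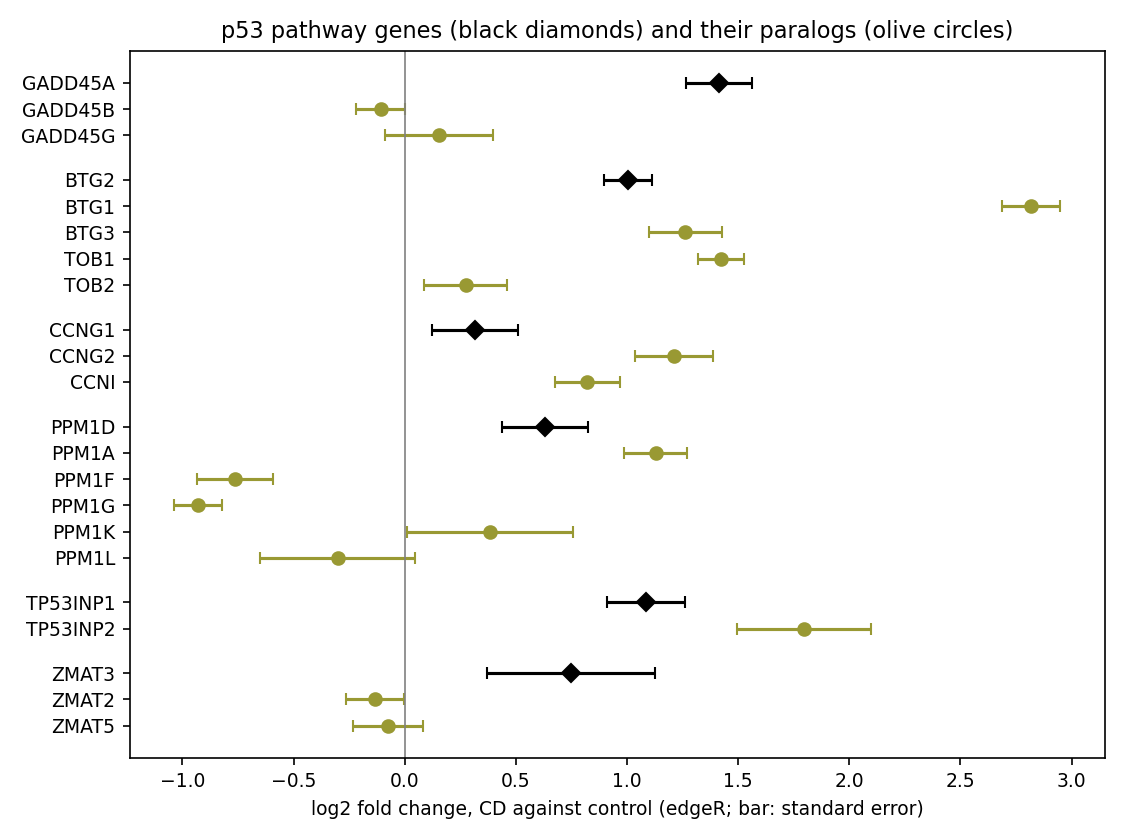
Log2FC of CD against control from edgeR (x axis) with its standard error (bars) for the genes of the set (black diamonds) and their tested paralogs (olive circles), by family. BTG1 at 2.82 exceeds BTG2 at 1.01, GADD45A lies at 1.41 and GADD45B and GADD45G near 0, and PPM1F and PPM1G lie below 0.

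Of 22 genes listed as relatives and regulators of p53, 20 were found and 19 tested. In this list 3 genes rose and 4 fell (36.8% called, against 47.7% of all tested genes), and the median log2FC was -0.068, against 0.057. Libraries made by tagmentation of cDNA, as here, do not mark the strand, so that reads of overlapping genes cannot be told apart. COP1, a ubiquitin ligase for p53, rose from 11.8 ± 1.10 to 24.8 ± 2.62 CPM (log2FC 1.07, FDR 3.93e-04, edgeR). The checkpoint kinases CHEK1 and CHEK2 (CHK1 and CHK2 in the table), which phosphorylate p53 after DNA damage, fell by 1.75 (FDR 2.07e-04) and 1.40 (FDR 4.26e-04, edgeR) on the log2 scale.

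The other targets that p53 activates were followed as 3 lists by role, written with results of these data known. They held 37 genes, of which 30 were found and 28 tested, and 8 rose and 5 fell in CD. The share called was 46.4% and the median log2FC 0.072, against 47.7% and 0.057 over all tested genes. Among 8 targets in arrest and growth, 3 rose and 1 fell (50% called), with a median of 0.42, and without CD replicate 3 the number that fell was 2. CDKN1A, which encodes p21, measured 118, 113 and 113 CPM in the control libraries against 146, 147 and 174 CPM in the CD libraries (log2FC 0.44 ± 0.11 SE, FDR 0.00951, edgeR). The groups did not overlap, and the log2FC of CDKN1A was below those of GADD45A, BTG2 and MDM2, a difference that was not tested. SFN (14-3-3σ), which holds CDK1 in the cytoplasm, and FBXW7, the substrate receptor of a ubiquitin ligase, rose by 1.39 (FDR 1.30e-04) and 1.09 (FDR 0.00123, edgeR) on the log2 scale, and the kinase gene PLK2 fell by 0.95 (FDR 9.01e-05, edgeR).

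Of 14 targets in apoptosis, 9 were found and 8 tested, of which 2 rose and 1 fell (37.5% called, median -0.16, against 47.7% and 0.057 over all tested genes). BAX, which permeabilizes mitochondria, measured 207, 190 and 192 CPM in the control libraries against 196, 238 and 293 CPM in the CD libraries (log2FC 0.30, FDR 0.12, edgeR), and was called in 1 of 14 alternative settings. PERP, a membrane protein of desmosomes, rose by a log2FC of 0.61 (FDR 0.00143, edgeR), and EI24, a protein of the endoplasmic reticulum, fell by 0.60 (FDR 9.40e-04, edgeR). The death receptor FAS rose by a log2FC of 0.37 (FDR 0.0327, edgeR) but was not called in 7 of 14 alternative settings, with an FDR of up to 0.14. Without CD replicate 3, 3 apoptosis targets fell, and without control replicate 1, 2 or 3 or CD replicate 2 only 1 rose. BBC3, BID, APAF1, TNFRSF10B and TP53AIP1 could not be matched, and PMAIP1 had no reads. Of 15 targets in repair and metabolism, 13 were found and 12 tested, of which 3 rose and 3 fell (50% called, median 0.046, against 47.7% and 0.057). DDB2, which recognizes UV damage, and POLH, a polymerase that copies damaged DNA, fell by 1.54 (FDR 1.41e-04) and 1.0 (FDR 0.00298, edgeR) on the log2 scale, and SESN1, an inhibitor of mTOR complex 1, rose by 1.24 (FDR 6.17e-04, edgeR).

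The genes of G2 and mitosis whose expression p53 lowers through p21 and DREAM were all lower in CD, as far as they were tested. Of 16 listed, 14 were found and tested, and all 14 fell, against 22.9% of all tested genes. Of these, 13 were called with the replicate block, at an FDR under 0.01, and without control replicate 1, 2 or 3 or CD replicate 2. Their log2FCs lay between -2.97 and -0.36, with a median of -2.22. These genes also mark dividing cells, and the share of dividing cells was not measured. MYBL2 (MYBB in the table), a transcription factor of the cell cycle, fell from 518 ± 21.5 to 65.9 ± 3.19 CPM (SD, n = 3 each; FDR 1.30e-07, edgeR). PLK1, the main mitotic kinase, fell from 331 ± 20.6 to 43.8 ± 2.03 CPM (log2FC -2.92, FDR 1.48e-07, edgeR), and CDC20, an activator of the anaphase-promoting complex, by 2.79 on the log2 scale (FDR 3.04e-07, edgeR).

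CDK1, the kinase that Reprimo holds inactive, measured 28.1, 28.8 and 24.7 CPM in the control libraries against 8.67, 7.36 and 12.2 CPM in the CD libraries (log2FC -1.54 ± 0.20 SE, FDR 1.75e-04, edgeR). RPRM and CDK1 were thus both lower in CD, at log2FCs of -5.62 and -1.54. CCNB1, which encodes the cyclin partner of CDK1, could not be matched in the table.

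The binding partners were a list of 11 genes, all tested, of which 3 rose and 3 fell (54.5% called, median log2FC 0.16, against 47.7% and 0.057 over all tested genes). The number that rose was 1 without control replicate 1 or 3 and 5 without CD replicate 3. PPP2R5B, a regulatory subunit of PP2A, rose from 18.15 ± 1.71 to 68.5 ± 2.84 CPM (log2FC 1.91 ± 0.13 SE, FDR 2.63e-06, edgeR). The clamp protein PCNA, to which GADD45A binds, fell from 187 ± 17.7 to 75.7 ± 9.79 CPM (mean ± SD of 3 libraries; log2FC -1.31, FDR 3.40e-05, edgeR). PRMT1, a methyltransferase bound by BTG proteins, fell by 0.95 on the log2 scale (FDR 8.68e-05, edgeR). GADD45A and PCNA therefore lay on opposite sides of control, as did BTG2 and PRMT1.

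**Figure D4:**
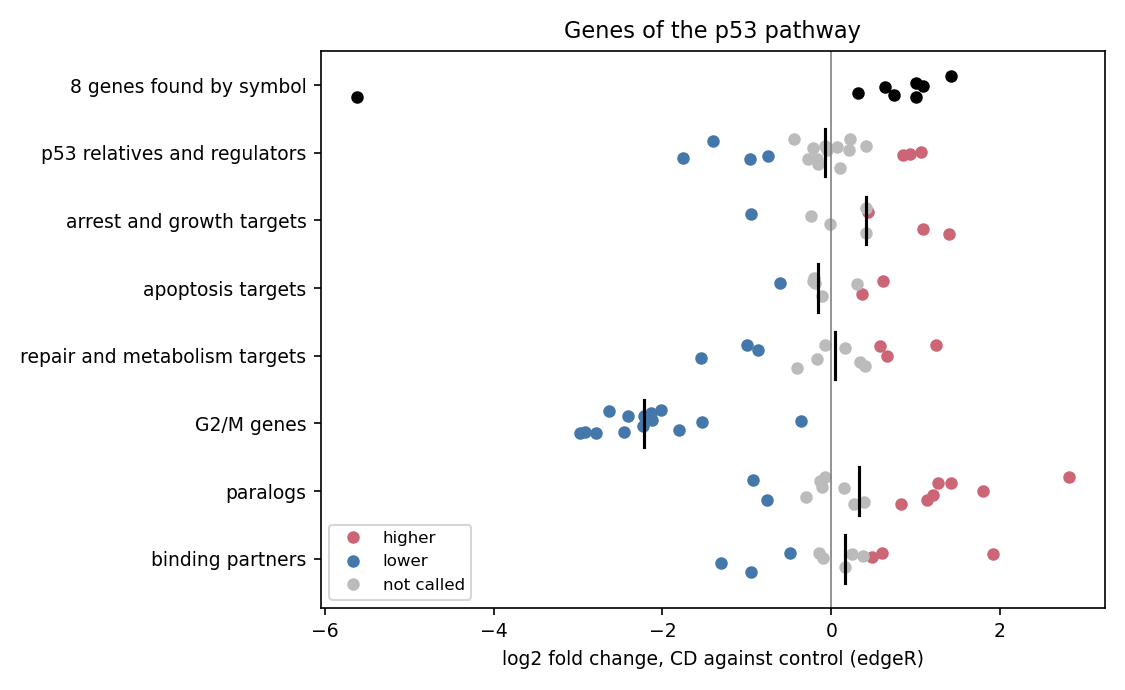
Log2FC of CD against control from edgeR (x axis) of each tested gene, by list (rows); red, blue and grey mark genes called higher, called lower and not called at an FDR under 0.05, black points are the 8 genes of the set found by symbol, and vertical lines are the medians of the other lists. All 14 G2/M genes lie below 0 with a median of -2.22, the target lists spread to both sides, and RPRM stands alone at -5.62.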

How the data were processed

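RNA of Mv1Lu cells was sequenced from 3 control and 3 CD libraries, grouped by the sample titles. According to the submitters' notes and the methods, reads were processed with fastp 0.20.1, aligned to mink assembly NNQGG.v01 with STAR 2.7.2a and compared with DESeq2 1.30.1 in R 4.0.3. The sources used here do not give the program that counted reads per gene. The authors deposited raw counts of reads for 24526 genes, with 4 rows of read totals (29.3% to 47.2% of the reads of a library), which were left out. They also deposited a normalized signal per library, a count divided by a size factor. Multiplied back, 100% of its values were whole reads (within 0.01), but the gene identifiers beside them follow another order, so they were paired with genes by row. The edgeR test on these reads, an alternative chosen after seeing the data, called 3016 genes higher and 2784 lower.

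Here, counts were tested with edgeR 4.0.16 in R 4.3.3 (filterByExpr with a minimum count of 10, TMM, robust glmQLFit, glmQLFTest, condition as the only term, Benjamini-Hochberg adjustment over 12148 genes). The standard error is the absolute log2 fold change divided by the square root of F, with a median of 0.18. Scripts were tested on simulated data. An exact permutation test over 3 libraries a group gives no p below 0.1, so FDR values rest on the spread estimated over all genes. The chi-square of read counts between libraries of a group was 9.23 to 72.4 per degree of freedom, so none was counted as a duplicate.

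The genes and lists were chosen with earlier results of these data known. Named were the 9 genes, CDKN1A, BAX, CDK1 and CCNB1, all measured paralogs, and the 3 called genes with the largest change in each other list. Also named were the 3 tested genes with a symbol that were nearest to RPRM in centered log2 CPM (prior count 2). A further gene of the rule and lists is not reported here. Genes were matched by symbol or older symbol, and 7 by description. No coordinates are given, as the annotation at hand is of another assembly. Alternatives were DESeq2 1.42.0, other scalings and filters, a replicate block, each library left out, limma 3.58.1 on log2 of the normalized signal with a pseudocount of 1, and an FDR of 0.01.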

Additional observations from a re-analysis of the deposited data

How the results depend on the processing

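Over 126 comparisons of the log2 fold changes of the 9 genes with an alternative, 124 moved by less than the SD between libraries. This was the SD of log2 CPM (prior count 2) within a group, pooled over both groups. The exceptions came with 1 library left out, where RPRM ranged from -6.01 to -5.35 and ZMAT3 from 0.105 to 1.025. With an FDR under 0.01, 2006 genes were called higher, with 1 apoptosis target and 1 binding partner among them. The number of apoptosis targets called higher was also 1 with the replicate block and with no filter on low counts. With each library left out, 1 to 2 apoptosis targets were called higher and 1 to 3 lower, 1 to 2 arrest targets lower, and 1 to 5 binding partners higher. The highest of the last 3 counts came without CD replicate 3, and the lowest number of binding partners without control replicate 1 or 3. Where 1 apoptosis target was called higher, FAS had lost its call. ZMAT5, which was not called, ranged from -0.236 to 0.05 with each library left out and changed sign without CD replicate 1, and GADD45G, not called either, ranged from -0.199 to 0.32 and changed sign without CD replicate 3. The causes were not tested.

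The replicate numbers are shared by the groups, but libraries with the same number did not deviate together (correlations of -0.024, -0.33 and -0.19). With 3 libraries a group, these values cannot tell whether such libraries share more than a number. With the replicate block, 2772 genes were called higher and 2636 lower, 13 of the 14 G2/M genes were called lower, and the log2 fold changes of MDM2, RPRM and ZMAT3 were 0.999, -5.61 and 0.57. Few reads limit RPRM in CD and MDM4.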

Other observations

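On the RefSeq annotation of mink assembly ASM_NN_V1, the 9 genes have 18 flanking protein-coding genes, of which 11 were found by symbol and 6 had enough reads to be tested. These neighbors were named because of their position, after values of the data were known. BCAS3, beside PPM1D, rose from 19.5 ± 1.34 to 35.1 ± 5.99 CPM (mean ± SD of 3 libraries; log2FC 0.85, FDR 0.00179, edgeR). PIK3CA, the catalytic subunit of a PI3-kinase and the neighbor of ZMAT3, had 18.3, 18.4 and 16.8 CPM in control and 40.9, 25.0 and 23.3 CPM in CD (log2FC 0.74, FDR 0.0168, edgeR). As for ZMAT3, CD replicate 1 was the highest library. CCNE2, or cyclin E2, the neighbor of TP53INP1, fell from 4.08 ± 0.101 to 0.273 ± 0.145 CPM (log2FC -3.83 ± 0.32 SE, FDR 1.13e-05, edgeR), while TP53INP1 was higher in CD. NDUFAF6, on its other side, was at 8.56 ± 0.703 and 6.67 ± 1.77 CPM (FDR 0.19, edgeR). SERBP1, beside GADD45A, and LRRN2, beside MDM4, fell, with log2FCs of -0.39 (FDR 0.0376, edgeR) and -2.07 (FDR 2.70e-04, edgeR). GALNT13, beside RPRM, had 1 to 6 reads per library and was not tested.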
